A study of Danio rerio with 26 samples.

Results

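RNA of zebrafish stage IV oocytes was compared with that of stage III oocytes across all genes of the deposited oocyte table. The members are the 4 libraries that the sample titles name as stage III and stage IV, 2 per stage, of 26 libraries in the series. The oocyte table also holds 2 libraries each of stages I and II, and a separate table holds embryos at 0 hours post fertilisation (hpf, 3 libraries), both used here as reference levels. Each oocyte library was made from 50 oocytes of fish whose genotype is labelled AB, TF and TLF, with no treatment named, and the 2 libraries of a stage are described as biological replicates. The ages of the fish and the number of females behind a library are not given in the labels.

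The nucleus of the oocyte (the germinal vesicle) was central in stage III and off-centre in stage IV. Mature eggs had first been cleared from the females by mating. Stage III oocytes were then taken 4 to 7 days later and freed with collagenase I, whereas stage IV oocytes were taken 8 to 10 days later and stripped mechanically with no collagenase. Stages I and II were taken after 1 to 2 days and freed with both collagenase I and collagenase II. Stage, days after clearing and isolation method therefore cannot be told apart in any difference below.

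A zebrafish oocyte grows inside a follicle, surrounded by granulosa cells and an outer layer of theca cells, blood vessels and connective tissue. During stage III it takes up yolk, while the follicle cells turn androgens into oestrogen with the aromatase encoded by cyp19a1a. In the fully grown oocyte, luteinizing hormone acts on the follicle cells, these change from oestrogen to maturation-inducing progestin, and the oocyte resumes meiosis and is ovulated. The oocyte also stores the RNAs that the embryo will use before its own genome becomes active. A library of isolated oocytes holds RNA of both compartments.

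The values are transcripts per 1000000 transcripts (TPM), a share of each library's RNA corrected for gene length, so that a level is relative to all other RNA in that library. Log2 changes below are differences of log2(TPM + 1), stage IV minus stage III, given with their standard error from limma, and a gene "rose" or "fell" where limma's adjusted p was under 0.05. Read depth is unknown because TPM keeps none. With 2 libraries a stage, a gene's values can fail to overlap without a real difference, so non-overlap alone is weak evidence. Replicate libraries correlated with Pearson's r of 0.979 in stage III and 0.961 in stage IV, and libraries of the 2 stages with 0.886 to 0.911, across the log2 values of the genes tested.

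Of 16067 genes tested, 4438 (27.6%) differed between stage IV and stage III, 2298 of them higher (14.3%) and 2140 lower (13.3%) in stage IV. With a change of at least 2-fold, 1573 genes rose (9.79%) and 1486 fell (9.25%), and 51.4% of these were rises. The median log2 change of all genes was -0.05. After median-of-ratios scaling of the libraries it was 0.10, and 2034 genes then rose and 1177 fell, so that 63.3% were rises. Fewer genes were called with any library left out, by an amount that differed between libraries. A stage then has a single library and the test has less power. A call that ended without a library, as given below, can reflect this as well as that library's values. Changes of at least 8-fold were called for 133 genes that rose and 21 that fell.

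**Figure D1:**
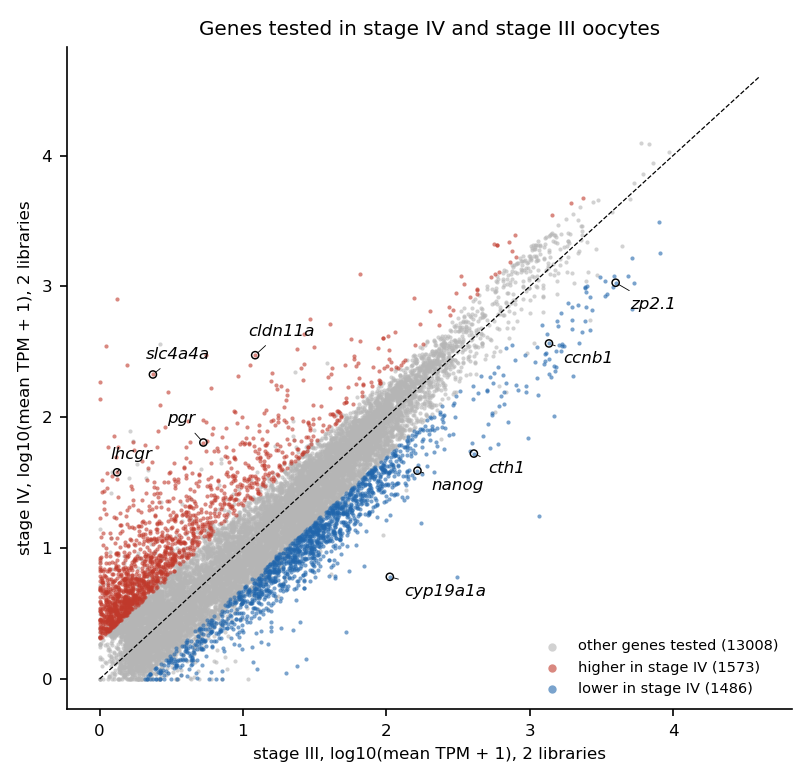
Mean level of each tested gene in stage III (horizontal) and stage IV (vertical) as log10(mean TPM + 1) over 2 libraries; red and blue points are the 1573 genes that rose and the 1486 that fell by at least 2-fold, and the dashed line marks equal levels. Rises lie mostly at low stage III levels, with lhcgr and slc4a4a far above the line, and falls reach up to abundant oocyte transcripts such as zp2.1 and ccnb1.

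Genes that rose and genes that fell differed in the level they had in stages I and II, whose libraries are in neither side of the comparison. Of the 1573 rises, 1023 (65.0%) were of genes with a mean under 1 TPM in stages I and II, although these were 2354 of the genes tested. Of the 1486 falls, 943 (63.5%) were of genes at 10 to under 100 TPM in stages I and II, and 306 (20.6%) of genes at 100 TPM or more. These classes held 6949 (43.3%) and 1878 (11.7%) of the genes tested. A gene under 1 TPM in stage III cannot be called as a 2-fold fall on the log2(TPM + 1) scale. The low class made up 0.37% and 0.29% of all TPM in the stage III libraries and 1.65% and 1.30% in the stage IV libraries. The filter bears on this pattern: 1286 tested genes reached 1 TPM in fewer than 2 libraries outside stage IV and entered the test only through stage IV, and 728 of the 1573 risen genes are among them. Likewise 37 of the 1486 fallen genes reached 1 TPM in fewer than 2 libraries outside stage III and entered the test only through stage III.

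**Figure D2:**
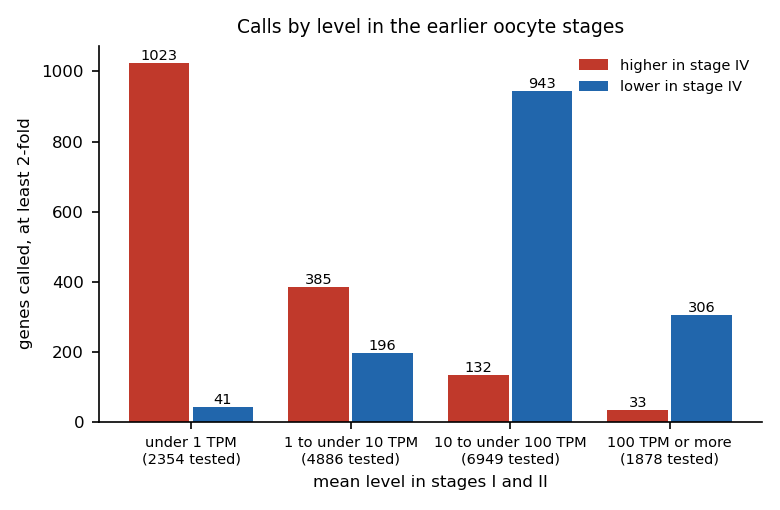
Number of genes that rose (red) or fell (blue) by at least 2-fold between stage III and stage IV, by the gene's mean TPM over the 4 libraries of stages I and II; the number tested in each class is under its label. Rises outnumber falls 1023 to 41 in the lowest class, and falls outnumber rises 306 to 33 in the highest.

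The genes that rose by at least 2-fold held 2.76% and 2.64% of all TPM in stage III and 9.32% and 8.15% in stage IV. The genes that fell held 22.2% of TPM in each stage III library and 4.81% and 7.87% in stage IV, against 23.2% to 26.4% in stages I and II. The share of the fallen genes in stage III was near that of the younger oocytes.

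Among genes with a symbol of their own and a mean of at least 10 TPM in stage IV, the largest rise was that of leap2, which encodes an antimicrobial peptide and was listed at 0 TPM in both stage III libraries and at 217 and 154 TPM in stage IV. The bicarbonate transporter slc4a4a stood at 1.52 and 1.19 TPM in stage III and 253 and 169 TPM in stage IV, a log2 change of 6.47 ± 0.31 (SE, adjusted p = 7.84e-05). The angiotensin-converting enzyme gene ace went from 0.32 and 0.20 TPM to 82.9 and 58.5 TPM (log2 change 5.81). In each of these the groups lay far apart, and stages I and II were as low as stage III. Of them, leap2 and ace passed the filter only through stage IV. The gene with the largest log2 change of all, si:ch211-139a5.9, has a clone-based symbol and was picked out after its values were seen: 0.33 TPM in each stage III library and 870 and 737 TPM in stage IV (log2 change 9.24). The reference gene names call it fxyd2, the name of a small regulator of the sodium-potassium pump. This gene too passed the filter only through stage IV.

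Other large rises were those of thbs1b, a matrix glycoprotein gene (log2 change 5.68), clu, which encodes the secreted chaperone clusterin (5.24), and rdh10a, a retinol dehydrogenase gene of retinoic acid synthesis (4.88). The water channel gene aqp1a.1 rose from 0.93 and 0.57 TPM to 30.5 and 79.7 TPM. The sulfotransferase gene sult2st1 rose from 0 and 0.45 TPM to 23.3 and 46.2 TPM. These genes were all at a mean under 4 TPM in stages I and II. Of them, thbs1b, clu, aqp1a.1 and sult2st1 passed the filter only through stage IV.

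The receptor genes for luteinizing hormone and for progestin in the nucleus rose. The luteinizing hormone receptor gene lhcgr (ENSDARG00000026081) stood at 0.39 and 0.26 TPM in stage III and at 31.6 and 42.4 TPM in stage IV, a log2 change of 4.83 ± 0.26 (SE, adjusted p = 0.000117). Stages I and II were at 0 to 0.07 TPM, so this receptor was near 0 in every library before stage IV. Its gene therefore passed the filter only through stage IV. The follicle stimulating hormone receptor gene fshr measured 2.71 and 2.90 TPM in stage III and 3.97 and 9.83 TPM in stage IV (log2 change 0.95 ± 0.37, adjusted p = 0.095), a difference within the spread of the stage IV libraries.

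The nuclear progestin receptor gene pgr, needed for ovulation in zebrafish, was at 4.26 and 4.33 TPM in stage III and at 69.7 and 56.6 TPM in stage IV (log2 change 3.59 ± 0.28, adjusted p = 0.000322). The gonad-specific insulin-like growth factor gene igf3 was at 7.16 and 3.11 TPM in stage III and at 92.1 and 72.1 TPM in stage IV (log2 change 3.83). The inhibin alpha subunit gene inha went from 22.6 and 12 TPM to 173 and 172 TPM (log2 change 3.31). None of these 3 genes overlapped between the stages, which alone is weak evidence with so few libraries. The inha libraries of stage IV were nearly equal. The membrane progestin receptor gene paqr7b stayed under the filter, at 0.05 and 0.18 TPM in stage III and 0.47 and 0.61 TPM in stage IV. Its relative paqr8 fell from 3.08 and 2.86 TPM to 0.53 and 0.32 TPM, a call that ended without either stage III library, and pgrmc1, a progestin receptor membrane component gene, did not pass the test (154 and 161 TPM, then 190 and 174 TPM).

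Steroid-making genes moved in opposite directions. The aromatase gene cyp19a1a (ENSDARG00000041348) had the largest fall among genes with a symbol of their own and a mean of at least 10 TPM in stage III, from 127 and 82.8 TPM to 1.07 and 9.01 TPM (log2 change -4.51 ± 0.65, adjusted p = 0.0026). It had first appeared in stage II, at 3.52 and 4.68 TPM, and was at 0.25 and 0.12 TPM in stage I. Both stage IV libraries were far below stage III, although they differed from each other by several fold. Its partner in oestradiol synthesis, hsd17b1, was at 62.9 and 46.2 TPM in stage III and 23.1 and 42.9 TPM in stage IV (log2 change -0.75, adjusted p = 0.197).

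Upstream of aromatase, hsd3b1, whose enzyme turns pregnenolone into progesterone, rose from 6.90 and 6.34 TPM to 87.4 and 75.8 TPM (log2 change 3.44). The testosterone-forming enzyme gene hsd17b3 rose from 2.44 and 1.61 TPM to 202 and 108 TPM (log2 change 5.63). The cholesterol carrier gene star rose from 3.10 and 4.21 TPM to 10.4 and 9.68 TPM (log2 change 1.26, adjusted p = 0.0135), a call that ended without the first stage III library or with a pseudocount of 0.1. The side-chain cleavage genes cyp11a1 and cyp11a2 rose by 1.1 and 1.38 (log2), and cyp17a2, of the enzyme that makes progestin precursors, by 1.11; the cyp17a2 call ended with any of the 4 libraries left out. The androgen-pathway gene cyp17a1 measured 56.5 and 56.7 TPM in stage III and 44.7 and 74.1 TPM in stage IV, a log2 change of 0.03 (adjusted p = 0.95). It had been at a like level in stages I and II (57.1 to 68.3 TPM). The theca hormone gene insl3 was at 0.16 and 0 TPM in stage III and at 35.9 and 17.2 TPM in stage IV. It passed the filter only through stage IV.

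**Figure D3:**
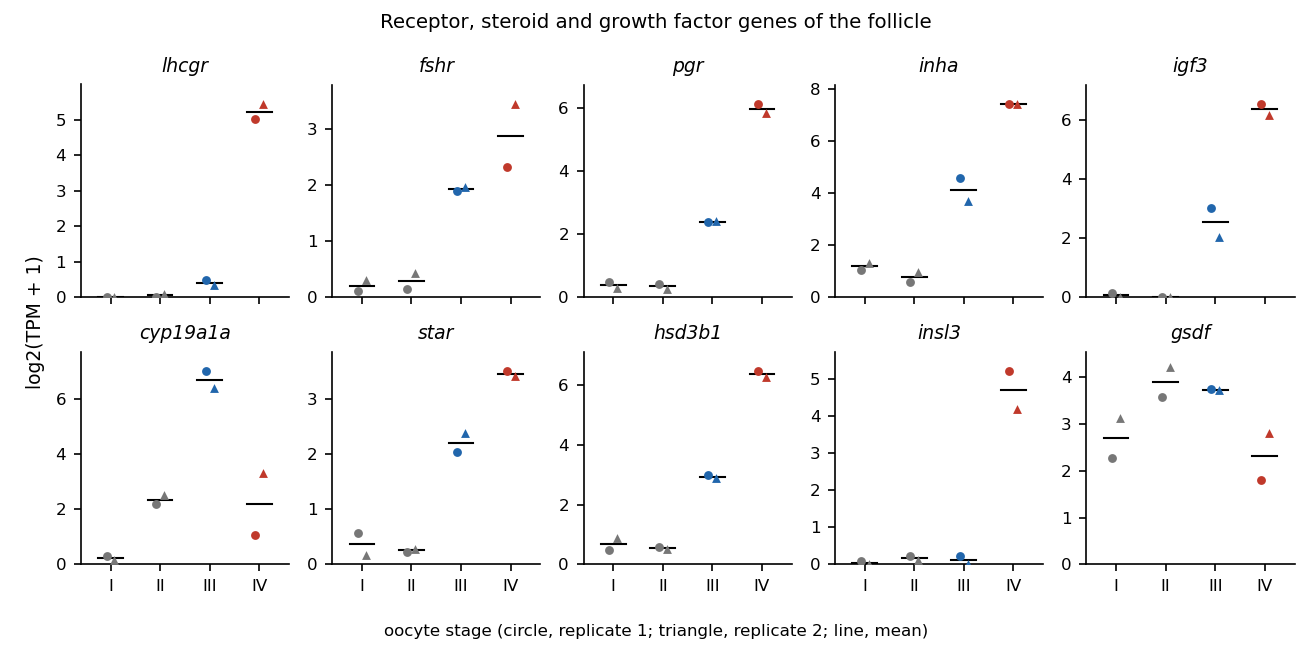
Level of 10 follicle genes in each oocyte library as log2(TPM + 1), by stage; circles are replicate 1, triangles replicate 2 and lines the mean of the 2, with stage III in blue and stage IV in red. The receptor genes lhcgr and pgr, the growth factor genes inha and igf3, and hsd3b1 and insl3 stand highest in both stage IV libraries, while cyp19a1a peaks in stage III at 127 and 82.8 TPM.

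Of 27 granulosa marker genes in the table, 18 passed the filter, of which 13 rose (72.2%) and 2 fell (11.1%). Of all genes 14.3% rose and 13.3% fell. The median log2 change of the markers was 1.26 against -0.05 for all genes. Of the 13 rises, 3 were of genes that passed the filter only through stage IV. The count was 5 without the second stage III library, 9 or 10 without one of the others, and 7 with a pseudocount of 0.1. The risen markers include the granulosa transcription factor genes foxl2a (2.58 and 1.59 TPM, then 5.91 and 5.28 TPM) and nr5a1a (39.2 and 18.7 TPM, then 61.2 and 70.12 TPM). Both calls ended without the second stage III library, without the first stage IV library and with a pseudocount of 0.1, and that of nr5a1a also without the second stage IV library. The falls were of cyp19a1a and of gsdf, a growth factor gene of the gonadal soma. The latter was at 12.4 and 12.1 TPM and then 2.5 and 6.01 TPM (log2 change -1.42, limma adjusted p = 0.0472). The gsdf call ended without either stage III library or the first stage IV library. It also ended with a pseudocount of 0.1, with no filter on low values and after median-of-ratios scaling. Of the theca and steroidogenic genes tested, 38.9% rose and 16.7% fell. Of 23 theca and steroidogenic genes 18 passed the filter, of which 7 rose and 3 fell; the falls numbered 1 without either stage III library or the first stage IV library.

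Summed over the 9 markers that define granulosa cells here, the level was 270 and 177 TPM in stage III. It was 302 and 358 TPM in stage IV, against 8.55 to 33.1 TPM in stages I and II. Its members moved in opposite directions. The largest part of the stage III sum was cyp19a1a (127 and 82.8 TPM, then 1.07 and 9.01 TPM). That of the stage IV sum was inha (22.6 and 12 TPM, then 173 and 172 TPM). By their values hsd17b1, gsdf and amh were also lower in both stage IV libraries, and foxl2a, fshr, lhcgr and nr5a1a higher. The granulosa sum is therefore no measure of granulosa RNA as a whole. The 5 theca markers summed to 72.3 and 76.1 TPM in stage III and 124 and 135 TPM in stage IV. Most of their stage III sum was cyp17a1 (56.5 and 56.7 TPM), which was also at a mean of 57.4 TPM in embryos at 0 hpf. The other theca markers were each higher in both stage IV libraries, insl3 most (0.16 and 0 TPM, then 35.9 and 17.2 TPM). The 6 stromal markers summed to 107 and 92.0 TPM and then 135 and 247 TPM. The granulosa marker amh was under 1 TPM in all 8 libraries. Fewer cells of a type and less RNA per cell cannot be told apart in such bulk libraries, and the part of cell number or of the collagenase step in the changes of follicle genes was not tested.

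Blood markers also rose, most in one stage IV library. Their sum over 7 identifiers was 87.4 and 42.5 TPM in stage III, 222 TPM in the first stage IV library and 1061 TPM in the second. One beta-globin identifier of the symbol hbba1 (ENSDARG00000089087) was at 29.3 and 19.5 TPM, then 108 and 370 TPM, and the alpha-globin gene hbaa1 was at 32.0 and 12.4 TPM, then 45.0 and 400 TPM (log2 change 2.69, adjusted p = 0.0612). Globin copies share reads, so the value of a single one is uncertain. The part of blood RNA in the other changes was not tested.

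Of 25 blood, endothelial and immune markers 19 passed the filter. Of these 12 rose (63.2%, against 14.3% of all genes), 5 of them genes that passed only through stage IV, and none fell. The count ranged from 8 to 15 with 1 library left out, and was 8 without the second stage III library. The antigen presentation genes mhc2dab (2.23 and 2.48 TPM, then 32.1 and 23 TPM) and cd74a (18.4 and 12.9 TPM, then 101 and 72.8 TPM) rose, and so did the leukocyte gene ptprc (0.87 and 0.51 TPM, then 4.01 and 4.39 TPM). The neutrophil gene mpx was at or near 0 in all 4 libraries (0, 0.02, 0.38 and 0.38 TPM). The 3 endothelial markers summed to 6.24 and 6.51 TPM in stage III and 4.50 and 8.04 TPM in stage IV, which overlap. Most of this sum was kdrl (5.02 and 5.08 TPM, then 2.75 and 4.45 TPM). The gene cdh5 was higher by its values (0.89 and 0.95 TPM, then 1.44 and 2.59 TPM) without being called. The values of pecam1 overlapped between the stages. The sum therefore mainly shows the level of kdrl. The share of stromal markers that rose was 13.3%, near the 14.3% of all genes. Of the risen stromal markers, col5a2a passed the filter only through stage IV. Among stromal markers 2 of the 15 that passed rose, col5a2a and the matrix gene sparc, and the count was 0 without either stage III library or the second stage IV library; col1a1a, of the main fibrillar collagen, was at 5.05 and 3.70 TPM and then 6.07 and 10.1 TPM (adjusted p = 0.134).

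Signalling genes of the TGF-beta family held both rises and falls. Of 38 genes on the follicle growth list 29 passed the filter. Of these 11 rose (37.9%, against 14.3% of all genes), 6 of them genes that passed only through stage IV. The 4 that fell (13.8%) were near the 13.3% of all genes. The falls numbered 2 without the second stage III library or the first stage IV library. The BMP receptor gene bmpr1bb rose from 17.2 and 12.1 TPM to 101 and 84.4 TPM (log2 change 2.59), bmpr2a from 1.01 and 0.50 TPM to 7.61 and 11.5 TPM, and the inhibitory smad6b from 1.18 and 1.03 TPM to 17.4 and 8.44 TPM. The activin receptor genes on the list did not pass the test, among them acvr2ba (13.7 and 9.24 TPM, then 3.56 and 4.55 TPM, adjusted p = 0.0854). The median of the list was -0.06 and turned to 0.12 after median-of-ratios scaling, so that the sign of the median depended on the scaling.

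Genes of ovulation, of cell contacts and of lipid transport held further large rises. On the ovulation list 33.3% rose, against 14.3% of all genes. Of 29 ovulation protease and prostaglandin genes 15 passed and 5 rose, with none falling by limma, and 2 rose without the second stage III library and 3 without the first stage IV library. Among them, ptgs2b, of a prostaglandin-forming cyclooxygenase, was at 1.53 and 1.1 TPM and then 24.7 and 13.3 TPM (log2 change 3.06), and timp2a, a metalloproteinase inhibitor gene, at 56.3 and 44.9 TPM and then 282 and 214 TPM. The tight junction gene cldn11a rose from 15.2 and 7.12 TPM to 330 and 265 TPM, and the gap junction gene cx34.5 from 134 and 92.3 TPM to 449 and 446 TPM. The apolipoprotein E gene apoeb rose from 2.1 and 1.01 TPM to 62.8 and 93.2 TPM, and the lipoprotein lipase gene lpl from 8.12 and 5.25 TPM to 67.8 and 30.1 TPM. The adaptor gene DAB2, of an endocytic protein, rose from 10.5 and 8.79 TPM to 96.9 and 70.6 TPM. Each of these 2 names has another identifier, which limma did not call. LPL (ENSDARG00000098720) had a log2 change of -0.89 (adjusted p = 0.102). For dab2 (ENSDARG00000031761) it was 0.22 (adjusted p = 0.661). The rises of lpl and DAB2 are thus those of single identifiers. The yolk precursor gene vtg1, made mainly by the liver, was at 24.1 and 7.23 TPM and then 11.8 and 106 TPM, a spread that left it uncalled (adjusted p = 0.306), and the receptor genes of yolk uptake on that list, other than ldlra, were not called; the ldlra call ended without the second stage III library.

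Genes of the immediate early response, which tissue handling can switch on, held more rises than falls. The shares were 27.6% risen and 6.9% fallen, against 14.3% and 13.3% of all genes. Among the falls, 1 was of a gene that passed the filter only through stage III. Of 29 tested 8 rose and 2 fell, and 4 rose without the second stage III library or without the first stage IV library. The transcription factor genes egr3 (0.75 and 0.37 TPM, then 13.7 and 14.7 TPM), jun (12.5 and 5.87 TPM, then 76.9 and 45.9 TPM) and junbb (73.9 and 43.7 TPM, then 358 and 225 TPM) rose. Of these, egr3 passed the filter only through stage IV. In contrast fosab, a Fos gene, measured 109 and 56.0 TPM and then 137 and 124 TPM (adjusted p = 0.138). The part of handling in these values was not tested.

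Proteins of the egg envelope are made from some of the most abundant transcripts of the growing zebrafish oocyte. Of 23 zona pellucida genes tested, 16 fell (69.6%, against 13.3% of all genes) and none rose by limma. All 23 had a negative log2 change, with a median of -1.54 (-0.05 for all genes). Together they made up 55592 and 56414 TPM in stage III, close to the 60352 to 63694 TPM of stages I and II, and 12092 and 27900 TPM in stage IV. The first stage IV library was the lower one for every zona pellucida gene named here.

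The zona pellucida gene zp2.1 (ENSDARG00000086352) stood at 3549 and 4410 TPM in stage III and at 506 and 1628 TPM in stage IV, a log2 change of -2.12 ± 0.49 (SE, adjusted p = 0.0156). Without the first stage IV library this change was -1.28, and its call ended without either stage III library. That call also ended with stages III and IV fitted alone. The gene zp3b was at 2387 and 2567 TPM and then 644 and 1158 TPM (log2 change -1.52), and zpax1 at 2869 and 2599 TPM and then 350 and 975 TPM (log2 change -2.22); the first of these calls ended without the second stage III library and the other without the first. Groups did not overlap for any of the 3 genes, but these were already called lower, so this is no separate evidence. The count of 16 falls became 5 without either stage III library, 12 without the first stage IV library and 19 without the second. Several zona pellucida genes are numbered copies of one family, between which reads can be split, so single values are uncertain.

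Growth factor and RNA-binding genes made by the oocyte did not move as one. The TGF-beta family gene gdf9, by which the oocyte signals to its follicle cells, fell from 41.1 and 42.6 TPM to 5.29 and 8.85 TPM (log2 change -2.44 ± 0.25, adjusted p = 0.000755). Its close relative bmp15 was level, at 160 and 174 TPM in stage III and 157 and 163 TPM in stage IV (log2 change -0.06 ± 0.13, adjusted p = 0.77). The RNA-binding zar1, needed for zebrafish oogenesis, fell from 563 and 699 TPM to 117 and 173 TPM (log2 change -2.14). Its mean had been 1545 TPM in stage I and 1056 TPM in stage II. The transcripts of buc, which organises the germ plasm store of the oocyte, stood at 1377 and 1300 TPM and then 1264 and 1613 TPM, which overlap (log2 change 0.09). Of the 20 oocyte markers tested 8 fell and none rose, with a median of -0.21; 5 fell without the first stage III library and 3 without the second. These falls were 40.0% of the list, against 13.3% of all genes. The sum of the 12 markers that define the oocyte here was 11118 and 12597 TPM in stage III and 7028 and 8855 TPM in stage IV. The fall of this sum came from the egg envelope genes zp2.1 (3549 and 4410 TPM, then 506 and 1628 TPM) and zp3b. The latter went from 2387 and 2567 TPM to 644 and 1158 TPM. Other members moved in both directions, with zar1 lower and h1m higher by its values (1281 and 1491 TPM, then 1774 and 1610 TPM). The oocyte genes org (1102 and 1106 TPM, then 1764 and 1636 TPM, adjusted p = 0.0568) and btg4 (356 and 479 TPM, then 582 and 636 TPM, adjusted p = 0.23) were higher by their values without passing the test.

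**Figure D4:**
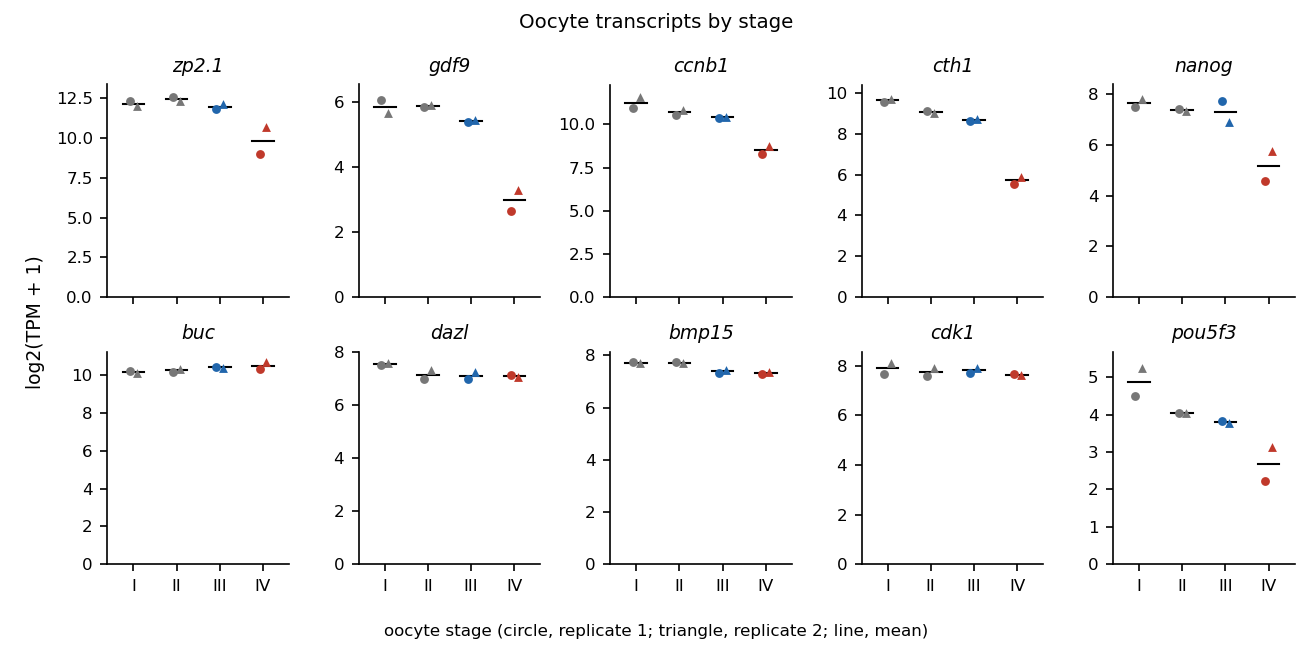
Level of 10 oocyte transcripts in each oocyte library as log2(TPM + 1), by stage; circles are replicate 1, triangles replicate 2 and lines the mean of the 2, with stage III in blue and stage IV in red. The genes zp2.1, gdf9, ccnb1, cth1 and nanog stand lower in both stage IV libraries than in any earlier one, whereas buc, dazl, bmp15 and cdk1 differ little between stages III and IV.

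Meiosis resumes when cyclin B and its kinase, encoded by cdk1, become active in the oocyte. The cyclin B gene ccnb1 fell from 1334 and 1392 TPM to 307 and 425 TPM (log2 change -1.91 ± 0.26, adjusted p = 0.00216), while cdk1 was at 210 and 237 TPM and then 201 and 196 TPM (log2 change -0.17, adjusted p = 0.554). The cyclin A genes ccna2 (55.8 and 65.9 TPM, then 9.20 and 10.0 TPM) and ccna1 (1057 and 1186 TPM, then 173 and 510 TPM) fell too. The ccna1 call ended without either stage III library and with stages III and IV fitted alone. Genes whose kinases hold that complex inactive fell: wee1 by 2.19, wee2 by 1.1 and pkmyt1 by 1.26 on the log2 scale, the last with a call that ended without the first library of either stage. The meiotic kinase gene mos fell from 218 and 209 TPM to 120 and 127 TPM (log2 change -0.79, adjusted p = 0.0149). Its call ended without either stage III library, without the first stage IV library and after scaling. Of 41 maturation kinase and cyclin genes tested 13 fell and none rose, with a median of -0.41; 8 to 12 fell with 1 library left out, 8 of them without the first stage III library. Over all 8 oocyte libraries, falls made up 31.7% of this list, against 13.3% of all genes. The polo kinase gene plk1 and the aurora kinase gene aurka had log2 changes of 0.09 and 0.01.

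Germ plasm marks the future germ cells, and piRNAs silence transposons in them. Of 31 such genes tested 11 fell and none rose, with a median of -0.33; after median-of-ratios scaling 8 fell and 2 rose, and 7 fell without the second stage III library. Before scaling and with all libraries, 35.5% of these genes fell, against 13.3% of all genes. The germ cell RNA-binding gene dnd1 fell from 26.6 and 35.4 TPM to 3.25 and 6.71 TPM (log2 change -2.47). The piRNA pathway genes tdrd5 (54.8 and 52.0 TPM, then 9.60 and 14.9 TPM) and tdrd1 (43.7 and 48.2 TPM, then 13.1 and 11.7 TPM) fell, as did ddx4, the vasa gene (144 and 139 TPM, then 52.1 and 73.2 TPM). The Piwi genes piwil1 and piwil2 did not pass the test, with log2 changes of -0.63 and -0.32. The germ plasm gene dazl was level at 126 and 153 TPM and then 139 and 135 TPM (log2 change -0.02, adjusted p = 0.944).

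Transcripts for the activators of the embryonic genome, which the egg supplies, were lower in stage IV for several members. The gene nanog was at 210 and 118 TPM in stage III and at 23 and 53.2 TPM in stage IV (log2 change -2.13 ± 0.39, adjusted p = 0.00658). The gene sox19b fell from 36.4 and 33.6 TPM to 8.43 and 10.3 TPM (log2 change -1.80). Their partner pou5f3 measured 13.3 and 12.8 TPM and then 3.70 and 7.85 TPM, with an adjusted p of 0.055. Stage IV was below stage III in both libraries for each of the 3 genes. The zinc finger gene znf281b, which the knockdown of this series targets, was at 9.40 and 12.7 TPM and then 7.09 and 6.36 TPM (adjusted p = 0.0899). Of 17 genome activation genes tested 4 fell (23.5%, against 13.3% of all genes) and none rose by limma. Beside nanog and sox19b the falls were of the T-box gene eomesa (51.8 and 33.8 TPM, then 5.52 and 4.24 TPM) and of foxh1, a cofactor of Nodal signalling, whose call ended without the first stage III library.

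Embryos at 0 hpf, measured in another table that was normalised separately, held several of these transcripts at high levels, and no test was made across tables. There nanog stood at 349 ± 12.9 TPM, sox19b at 345 ± 3.79 TPM, pou5f3 at 261 ± 21.1 TPM, ccnb1 at 2041 ± 58.9 TPM and ccna2 at 261 ± 9.09 TPM (mean ± SD, n = 3). Each of these is above the level in both stage IV libraries. By contrast zp2.1 stood at 89.0 ± 11.0 TPM and zar1 at 35.1 ± 3.57 TPM, below stage IV. Of the 1486 genes that fell, 1158 (77.9%) had a higher mean at 0 hpf than in stage IV, compared with 6230 of the 13008 genes without a 2-fold call (47.9%) and 214 of the 1573 that rose (13.6%). These calls used the same stage IV libraries that the 0 hpf level is set against, so low or high stage IV values enter both.

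The zinc finger gene cth1 showed the fall with the smallest error among the 12 largest, from 391 and 423 TPM to 45.9 and 57.7 TPM (log2 change -2.96 ± 0.16, adjusted p = 0.000117), and stood at 942 ± 71.7 TPM at 0 hpf. Similar falls were those of racgap1, of a cytokinesis protein (45.8 and 39.6 TPM, then 4.62 and 5.54 TPM), and of the ephrin gene efna1b (17.2 and 30.9 TPM, then 1.2 and 2.22 TPM). The homologous recombination gene XRCC2 fell from 54.7 and 53.3 TPM to 3.86 and 7.58 TPM, and the nuclear receptor gene hnf4b from 27.2 and 25.6 TPM to 0.28 and 0.54 TPM. The matrix gene tgfbi had a different course: it was under 0.3 TPM on average in stages I and II, at 23.8 and 10.8 TPM in stage III, and at 0.24 and 2.65 TPM in stage IV. The remaining large falls were of UBLCP1, txlnbb, MPC2 and gbgt1l2, with log2 changes from -4.12 to -2.75. In txlnbb the stage III libraries lay far apart (93.7 and 9.11 TPM). Its call ended without either stage IV library and with stages III and IV fitted alone. That of MPC2 ended without the first stage III library or either stage IV library.

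The symbol MFAP4, of a microfibril-associated glycoprotein, is shared by several identifiers. One of them (ENSDARG00000111491) fell from 1767 and 1203 TPM to 19.0 and 184 TPM (log2 change -4.58 ± 0.84, adjusted p = 0.00645; -2.98 without the first stage IV library). Another (ENSDARG00000116066) was at 7379 and 4610 TPM in stage III and 8648 and 16503 TPM in stage IV (adjusted p = 0.0959). Of 6 MFAP4-like identifiers tested 3 rose and 1 fell; the rises were of identifiers that passed the filter only through stage IV, and 0 rose without either stage III library. In stages I and II all 8 MFAP4-like identifiers together reached 3.62 to 200 TPM. Reads can be split between such copies, so that the values of a single one are uncertain.

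Dorsal and axis determinants, whose RNAs pattern the embryo, had 8 falls and 1 rise among 19 tested, and 0 rises without either stage III library or the first stage IV library. They include both wnt8a identifiers (14.8 and 19.7 TPM, then 2.03 and 3.82 TPM for the higher one, and 4.97 and 10.4 TPM, then 0.44 and 1.29 TPM for the other) and the Nodal coreceptor gene tdgf1 (44.2 and 40.2 TPM, then 9.85 and 14.3 TPM). The call of the lower wnt8a identifier ended without the second stage III library or the first stage IV library. On the axis list 42.1% fell and 5.26% rose, against 13.3% and 14.3% of all genes. Among RNA storage and decay genes 16 of 56 tested fell and 3 rose, with a median of -0.45; 8 fell without either stage III library, and 10 without either stage IV library. The translational repressor gene eif4enif1 fell from 53.1 and 52.2 TPM to 15.5 and 11.7 TPM. The poly(A)-binding protein gene pabpc1b rose from 19.4 and 12.3 TPM to 248 and 100 TPM (log2 change 3.27). Meiotic chromosome genes had 3 falls among 15 tested (20.0%, against 13.3% of all genes) and no rise by limma, with 1 fall without the second stage III library and 2 without the first library of either stage. The synaptonemal complex genes sycp1 and sycp3 were uncalled, with log2 changes of -0.02 and -0.19.

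Chaperones of the endoplasmic reticulum, which fold secreted proteins, were a further list with many falls. Of 31 genes tested 15 fell (48.4%) and 2 rose (6.45%), against 13.3% and 14.3% of all genes. The median log2 change of the list was -0.77. The disulfide isomerase gene pdia4 was at 487 and 602 TPM and then 114 and 102 TPM (log2 change -2.32 ± 0.20, adjusted p = 0.000441). The main chaperone gene hspa5, also called BiP, fell from 1187 and 1250 TPM to 519 and 486 TPM, and the stress sensor gene atf6 from 30.7 and 30.4 TPM to 8.45 and 5.22 TPM. Neither gene overlapped between stages, which is no separate evidence for genes already called lower. The list's sum went from 6372 and 6650 TPM to 3724 and 3426 TPM, having been 8238 to 10655 TPM in stages I and II. The 2 rises were of edem1, of the pathway that degrades misfolded proteins, and of atf4b. For edem1 the level went from 31.5 and 27.7 TPM to 119 and 73.1 TPM. Its call ended without the second stage III library or the first stage IV library. The atf4b log2 change was 0.83, with a call that ended without either stage III library or the first stage IV library. With 1 library left out 7 to 13 of the list fell, 7 of them without the second stage III library and 9 without the first.

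Ribosomal protein transcripts took up more of the library in stage IV. The cytosolic ribosomal protein genes summed to 74797 and 76905 TPM in stage III and to 143379 and 122793 TPM in stage IV. Of 87 tested 55 rose (63.2%) and 1 fell (1.15%), against 14.3% and 13.3% of all genes. A positive log2 change was found for 85, and the median of the list was 0.83. The small subunit gene rps28 rose from 794 and 778 TPM to 2886 and 2084 TPM (log2 change 1.64), and rps2 rose by 1.28 (log2). The exception was rpl7l1, a ribosomal protein L7-like gene, which fell from 363 and 442 TPM to 132 and 212 TPM, with a call that ended without the second stage III library or the first stage IV library. Fewer of the 55 rises were called with any library left out, most of all without either stage III library or the first stage IV library. With no filter on low values 36 were called. Mitochondrial ribosomal protein genes did not move with them, with 9 rises (11.8%) and 12 falls (15.8%) among 76 tested and a median of 0.06. These shares are near the 14.3% and 13.3% of all genes. Fewer of them rose and fewer fell with any library left out.

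Nuclear genes of oxidative phosphorylation rose in 27 of 92 cases (29.3%, against 14.3% of all genes) and in none fell by limma, with a median of 0.41. Without the first or second stage III library 9 and 8 rose, and without the first or second stage IV library 13 and 12. The largest rises were of cytochrome oxidase subunit genes: cox5b2 (0.47 and 0.16 TPM, then 8.32 and 13.7 TPM), cox7a1 (not called with a pseudocount of 0.1), cox6a2 (1.89 and 4.17 TPM, then 28.1 and 20.4 TPM) and cox8b (6.98 and 6.95 TPM, then 51.7 and 37.5 TPM). Among these, cox5b2 passed the filter only through stage IV. In mammals the COX6A2, COX7A1 and COX8B forms are those of heart and skeletal muscle. The 13 genes of the mitochondrial genome summed to 48003 and 40518 TPM in stage III and 60682 and 42596 TPM in stage IV, which overlap, after 1875 and 2677 TPM in stage I. One of them, mt-co1, was called higher (adjusted p = 0.0483), and that call ended after scaling and without either stage III library or the first stage IV library.

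Chromatin genes split within families. The H3K9 methyltransferase genes suv39h1a (33.8 and 32.7 TPM, then 6.63 and 7.90 TPM) and suv39h1b (64.8 and 63.5 TPM, then 10.2 and 18.2 TPM) both fell. The DNA methyltransferase gene dnmt3bb.2 fell from 17.8 and 18.4 TPM to 3.65 and 5.04 TPM, while dnmt3aa rose from 0.35 TPM in each library to 8.06 and 2.55 TPM, with a call that ended without either stage III library. The maintenance pair dnmt1 (230 and 201 TPM, then 391 and 367 TPM) and uhrf1 (25.6 and 25.9 TPM, then 53 and 49.5 TPM) rose, but the dnmt1 call ended with any of the 4 libraries left out and the uhrf1 call without either stage III library or the first stage IV library. On this list of 35 tested genes 7 rose (20.0%), 4 of them through the stage IV libraries alone, and 8 fell (22.9%). Without the first library of either stage 3 rose and 5 fell, and without the second stage III library 1 rose and 5 fell. Of 49 histone and histone chaperone genes 7 rose (14.3%, the share of all genes) and 2 fell (4.08%). Fewer of them rose with any of the 4 libraries left out. On that list h2az2a fell from 466 and 538 TPM to 142 and 172 TPM.

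Lists of protein turnover, lipid synthesis and stress held both rises and falls, except for the proteasome. Of all genes 14.3% rose and 13.3% fell. The shares were 17.8% and 0% for the proteasome and 12.2% and 12.2% for E2 genes. They were 14.3% and 21.4% for fatty acid and sterol genes, 16.7% and 10% for oxidative stress, and 23.1% and 7.69% for p53 and apoptosis. Several of these shares, such as those of the E2 genes, are near those of all genes. Of 45 proteasome genes 8 rose and none fell by limma, the largest rises being of psmb8a and psmb13a, immunoproteasome subunit genes, and 1 or 2 rose without either stage III library or without the first stage IV library; the psmb13a call ended without the second stage III library or the first stage IV library. E2 ubiquitin-conjugating genes had 5 rises and 5 falls among 41, with ube2al falling from 109 and 116 TPM to 24.6 and 24.5 TPM. Of 13 cathepsin genes 5 rose (38.5%, against 14.3% of all genes) and 2 fell, and ctsk rose from 4.91 and 4.26 TPM to 100 and 29.2 TPM while ctsla fell from 707 and 596 TPM to 194 and 225 TPM. Fatty acid and sterol genes had 4 rises and 6 falls among 28; scd, of a fatty acid desaturase, was at 9.96 and 19.5 TPM and then 1.54 and 1.13 TPM (not called without the second stage III library), and cyp51, of sterol synthesis, at 0.73 and 0.90 TPM and then 9.46 and 6.02 TPM. The glutathione synthesis genes gclm (49.7 and 46.6 TPM, then 9.53 and 14.5 TPM) and gclc fell on the oxidative stress list, the latter with a call that ended with any of the 4 libraries left out; 5 genes of that list rose and 3 fell of 30. The proapoptotic gene pmaip1 fell from 104 and 120 TPM to 32.4 and 46.6 TPM, among 6 rises and 2 falls of 26 p53 and apoptosis genes. These counts are small. Genes that passed the filter only through stage IV made up 2 of the 8 proteasome rises, namely psmb8a and psmb13a. Such genes also made up 2 of the 4 fatty acid and sterol rises and 3 of the 6 p53 and apoptosis rises. Fewer genes of each of these lists rose without either stage III library or without the first stage IV library. Fewer E2 genes fell with any library left out. A stage then has a single library and the test has less power.

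**Figure D5:**
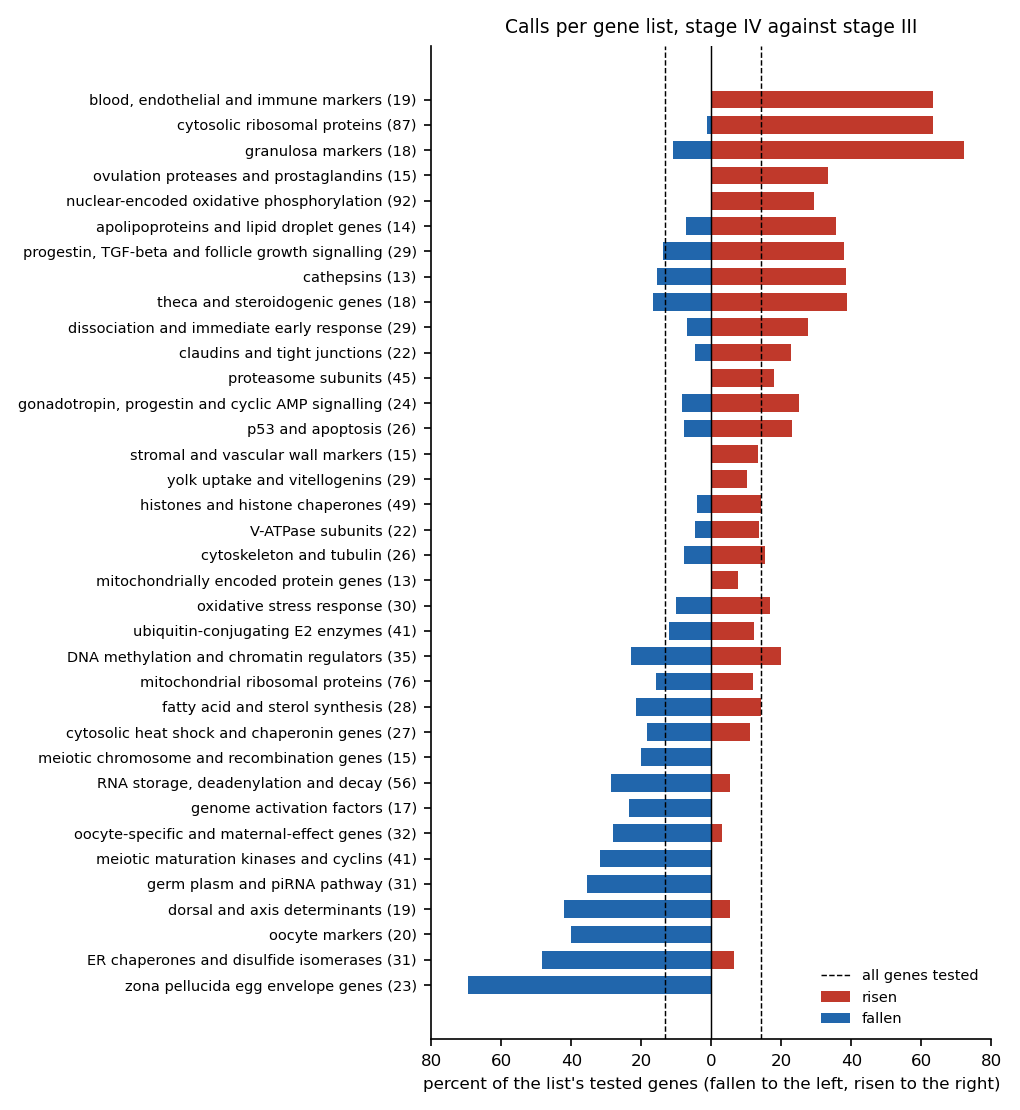
Percent of each list's tested genes that rose (red, right) or fell (blue, left) between stage III and stage IV by limma's adjusted p, with the number tested in brackets; dashed lines mark the 14.3% of all tested genes that rose and the 13.3% that fell. Lists with under 13 tested genes are left out; granulosa, blood and cytosolic ribosomal protein lists extend farthest to the right and the zona pellucida list farthest to the left.

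Among genes of the cytoskeleton, the beta-actin gene actb2 rose from 2069 and 1800 TPM to 4774 and 3912 TPM (log2 change 1.16, adjusted p = 0.00927), with a call that ended without the second stage III library. Its sister gene actb1 was not called, with a log2 change of -0.27. The tubulin gene tubb2b fell from 241 and 231 TPM to 104 and 114 TPM, and tuba8l2 rose from 19.0 and 16.5 TPM to 48.7 and 57.4 TPM. Of 26 genes on the list 4 rose (15.4%, against 14.3% of all genes) and 2 fell (7.69%, against 13.3%). Among the rises, that of the tubulin gene tuba2 was of a gene that passed the filter only through stage IV. Fewer rose without the second stage III library.

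The remaining lists are read against the 14.3% of all genes that rose and the 13.3% that fell. Egg surface, fertilization and cortical granule genes had 6 rises (66.7%) among 9 tested of 27 in the table. Of these rises 2 were of genes that passed the filter only through stage IV, and fewer genes rose without the second stage III library. The rises include ybx1, of an RNA-binding protein (412 and 357 TPM, then 973 and 678 TPM). This gene is also the 1 rise of the maternal-effect list. The gene spon1b, of a secreted spondin, rose from 3.17 and 2.82 TPM to 36.8 and 33.5 TPM. Maternal-effect genes had 1 rise and 9 falls among 32, with a median of -0.09 that turned to 0.09 after scaling. The falls were 28.1% of the list and numbered 5 without the second stage III library or the first stage IV library. The hormone and cyclic AMP signalling list had 6 rises and 2 falls among 24. It held 1 rise of a gene that passed the filter only through stage IV and 1 fall of a gene that passed only through stage III. Its falls numbered 0 without either stage III library and 1 without either stage IV library. Heat shock and chaperonin genes had 3 rises and 5 falls among 27, of which dnajb1a fell from 31.2 and 25.4 TPM to 6.10 and 5.59 TPM, and 0 rises with any of the 4 libraries left out. Among the heat shock and chaperonin falls, 1 was of a gene that passed the filter only through stage III. Tight junction genes had 5 rises (22.7%) and 1 fall among 22, and apolipoprotein and lipid droplet genes 5 (35.7%) and 1 among 14. Proton pump (V-ATPase) genes had 3 (13.6%) and 1 among 22, connexin genes 2 (28.6%) and 1 among 7. Yolk uptake genes had 3 (10.3%) and 0 among 29. Genes that passed the filter only through stage IV made up 1 of the tight junction rises and 2 of the apolipoprotein rises. They also made up 1 of the connexin rises and 2 of the yolk uptake rises. The V-ATPase rises also numbered 0 without either stage III library or the first stage IV library, and the tight junction rises 2 without either stage III library. The single falls of the apolipoprotein, V-ATPase and connexin lists were lost without either stage III library or the first stage IV library, the connexin rises numbered 1 without the first library of either stage, and the yolk uptake rises numbered 2 without the second stage III library and 7 without the first stage IV library.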

How the data were processed

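Per the labels' protocols, oocyte RNA was extracted with TRIzol, and rRNA-depleted stranded libraries were made from 100 ng of total RNA. Per the submitters' processing notes, STAR 2.7.3a, RSEM and danRer11 were used; no annotation release is named in the sources used here. The authors deposited TPM per gene for 32520 identifiers, each library summing to 1000000. TPM keeps no depth, so no counting interval is given, and low values are the least precise. Oocyte and embryo tables were normalised separately, and tests were made only within the oocyte table. Symbols come from the embryo table, matched on the gene identifier, since 3757 of them differ in the oocyte table and 18 there had become dates; 0 columns belonged to other samples.

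From these values, limma 3.58.1 (R 4.3.3) was fitted to log2(TPM + 1) over all 8 oocyte libraries (4 stages), with empirical Bayes moderation and a mean trend, for genes at 1 TPM or more in at least 2 libraries. The scale understates changes of low genes. P-values were two-sided and adjusted by the Benjamini-Hochberg method over all genes tested; calls needed an adjusted p under 0.05, and overall counts also a change of at least 2-fold. The fit was checked on simulated data. Lists were described by counts and medians, with no set test. Some genes are on more than 1 list, among them gdf9, zar1, eomesa and cyp19a1a, so the counts of different lists are not independent. Named genes are the 12 largest rises and falls whose mean reached 10 TPM in the higher stage (shared and clone-based symbols left out), up to 4 called members per list whose mean reached 5 TPM, and a fixed set of known follicle, oocyte and embryo genes; further list members are named to show how a list divides. The comparison, the 39 lists and these rules were chosen with earlier results of these data known. Alternatives were another pseudocount, other filters, other scalings, stages III and IV alone, a replicate block and leaving out each library.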

Additional observations from a re-analysis of the deposited data

How the results depend on the processing

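The counts of genes that rose and fell by at least 2-fold (1573 and 1486) stayed within 1.5 times with a pseudocount of 0.1 (1437 and 1676), no filter on low values (1378 and 1252), stages III and IV alone (1405 and 1538) and median-of-ratios scaling (2034 and 1177). A filter of 5 TPM in 2 libraries left 854 rises, having fewer genes to test, and 1388 falls. Scaling on genes abundant in stages I and II, chosen after seeing the data, gave 2150 rises and 1114 falls. Leaving out each library in turn gave 921 to 1546 rises and 808 to 1347 falls; a lone library was then assumed to vary like the other stages. Same-numbered deviations of stages III and IV correlated at 0.031 (stages I and II 0.437, stages I and III -0.111, other pairs 0.003 to 0.075), so a shared origin of the numbers is not shown for this comparison; with a replicate block the counts were 1613 and 1569. Of 171 named genes tested 156 were called, 100 of these kept their call without each library, and 0 changed sign. The log2 changes that reversed were all of uncalled genes. Median-of-ratios scaling gave 0.12 for bmp15, 0.16 for dazl and 0.0113 for cdk1, and scaling on early genes 0.16, 0.19 and 0.0487. With each library left out in turn, bmp15 ranged from -0.122 to 0.0018, buc from -0.0814 to 0.269, dazl from -0.164 to 0.12, cyp17a1 from -0.33 to 0.384 and vtg1 from -0.17 to 2.90. The cause of these shifts was not tested.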
